A study of Mus musculus with 4 samples.

Results

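The genes of fatty acid synthesis were examined in fetal livers of mice whose dams had received either a high-fat diet (HFD) or a control diet (CD) while pregnant. The set held 10 genes of the 22911 with a named probe on the array, and its members were named for their place in the pathway, with no threshold on a measured value. These were the regulators Srebf1 and Mlxipl, the enzymes Acly, Me1, Acaca, Fasn, Elovl6, Scd1 and Scd2, and Dgat2, which joins the finished fatty acids to a glycerol backbone. Every non-control probe whose RefSeq transcript belonged to one of these genes was taken, which gave 16 probes, and all 16 passed the filters on dim and variable probes. The dams were C57BL/6J females. According to the methods, the CD supplied 4.3% of energy as fat, 19.2% as protein and 67.3% as carbohydrate, shares that fall short of the whole. The HFD supplied 60% as fat, 20% as protein and 20% as carbohydrate. Livers were taken in mid-gestation, and their RNA was hybridised to 4 single-colour Agilent arrays, 2 for each diet. The number of fetuses and dams behind each array is not given in the sources used here. The p-values therefore measure the spread between these arrays. That spread may be partly technical, and it also holds a difference in fetal sex described below.

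Hepatic fatty acid synthesis starts from citrate, which ATP citrate lyase (Acly) splits to give cytosolic acetyl-CoA. Acetyl-CoA carboxylase (Acaca) turns acetyl-CoA into malonyl-CoA, and fatty acid synthase (Fasn) builds palmitate from it with NADPH, part of which comes from malic enzyme (Me1). Elovl6 lengthens palmitate, and the stearoyl-CoA desaturases Scd1 and Scd2 place a double bond, giving the monounsaturated fatty acids that Dgat2 and other acyltransferases store as triglyceride. In the mature liver the pathway follows carbohydrate intake and insulin through the transcription factors SREBP-1c (from Srebf1) and ChREBP (from Mlxipl). Polyunsaturated fat in the diet is known to lower it. Scd2 is the main desaturase of the liver before weaning, and Scd1 takes that place in the adult.

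The promoters of Fasn, the central synthase, and Mlxipl are shown. Mlxipl has more than 1 annotated start, as do Srebf1 and Me1, which are not shown. Among the members with a window, only Mlxipl held the motifs marked in its sequences below. The windows were taken from RefSeq on the GRCm38.p6 build and hold the 250 bases before an annotated transcription start. Windows were found for 7 of the 10 genes, 11 windows in all. The Fasn window is chr11:120824548-120824797 on the minus strand. Capitals mark CCAAT on either strand, the sequence bound by NF-Y, a factor known to act beside SREBP.
Fasn: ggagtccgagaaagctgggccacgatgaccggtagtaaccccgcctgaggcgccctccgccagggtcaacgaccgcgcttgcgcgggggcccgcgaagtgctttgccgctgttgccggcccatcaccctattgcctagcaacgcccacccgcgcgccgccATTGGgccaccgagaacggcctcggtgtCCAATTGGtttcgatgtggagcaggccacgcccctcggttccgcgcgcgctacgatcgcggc
The matches began 90, 62 and 59 bases before the start, and the last pair overlapped. CCAAT was found in 5 of the 11 windows (in those of Fasn, Me1, Mlxipl and Srebf1) and in 33.8% of all 32851 windows. The Mlxipl windows are chr5:135089640-135089889 and chr5:135106641-135106890, both on the plus strand. Capitals mark the E-box CACGTG in the upstream window and TCACNCCAC, a form of the sterol response element that SREBP binds, in the downstream one, both searched on either strand. The CCAAT match in the upstream window is not marked.
Mlxipl, upstream start: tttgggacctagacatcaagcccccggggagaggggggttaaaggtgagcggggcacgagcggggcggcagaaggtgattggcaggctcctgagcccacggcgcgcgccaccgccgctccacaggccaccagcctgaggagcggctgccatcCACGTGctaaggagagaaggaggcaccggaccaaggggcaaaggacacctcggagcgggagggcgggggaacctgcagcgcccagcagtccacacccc
Mlxipl, downstream start: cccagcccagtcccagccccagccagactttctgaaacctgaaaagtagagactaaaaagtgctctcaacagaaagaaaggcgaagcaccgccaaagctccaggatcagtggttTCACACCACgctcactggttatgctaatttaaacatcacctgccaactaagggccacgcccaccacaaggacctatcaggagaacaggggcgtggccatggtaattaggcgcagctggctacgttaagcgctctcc
The E-box began 98 bases and the other motif 136 bases before its start. Each was found in 1 of the 11 windows, beside 6.02% and 1.05% of all windows. These matches are descriptions of the sequence and were not tied to any measurement.

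Each array carried 59305 non-control spots, and a level is the log2 intensity of a probe minus the 75th percentile of its array. A level of 0 is therefore the brightness of a probe at that percentile, and levels of different probes cannot be set against each other. Between 65.4% and 70.0% of spots were well above background on an array, and no spot was saturated. The spread between replicates was wider under CD (SD of the log2 difference 0.58 over 41332 tested probes) than under HFD (0.34). The labels give female for all 4 samples and do not say whether this refers to the fetuses or to the dams. The fetal transcripts were not alike on the 4 arrays. Replicate 1 of both diets had the Y-linked Eif2s3y at levels of 1.45 (CD) and 1.84 (HFD) and Xist not well above background, while replicate 2 of both diets had Xist at levels of -0.65 and -0.74 and Eif2s3y not well above background. By these transcripts replicate 1 was male and replicate 2 female in both diets, so the label cannot describe all the fetuses. The gap between the arrays of a diet is thus also a gap between the sexes. The differences within each replicate number are therefore given after those between the diets.

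No difference between the diets was resolved for the fatty acid synthesis genes. The difference between the diets (HFD minus CD) had a median of -0.016 on the log2 scale over the 16 probes, beside 0.026 over all tested probes, with 7 probes above 0 and 9 below. Single differences ran from -0.34 for a dim probe of Acly to 0.54 for Me1, or 0.792-fold to 1.45-fold. Of the 16 probes, 0 passed an unadjusted limma p of 0.05 together with a 2-fold change, where 0.293% of all tested probes did so with a higher and 0.477% with a lower level in the HFD group. Without the demand on fold, again 0 member probes had a limma p under 0.05, beside 1.58% of all probes higher and 1.76% lower. After Benjamini-Hochberg adjustment limma called 0 of all probes (0%), and the methods' t-test called 0 as well. With 2 arrays against 2, an exact permutation test cannot give a p under 0.333. Both HFD arrays lay above both CD arrays for 2 of the 16 probes, beside 19.5% of all probes, and below both for 3, beside 11.1%.

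**Figure D1:**
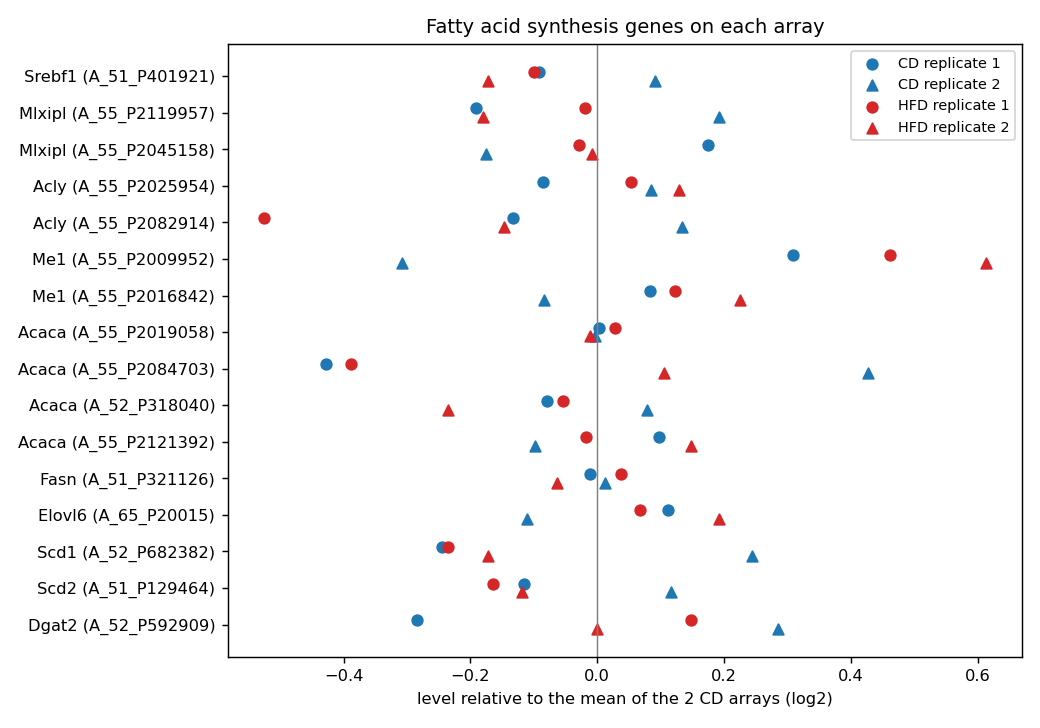
Level of each of the 16 probes on each array, relative to the mean of the CD arrays (log2, horizontal axis). Blue marks CD and red HFD arrays, circles are replicate 1 and triangles replicate 2. For 11 of the 16 probes the diets overlap, and the CD arrays lie wider apart than the HFD arrays for 12. The share of all tested probes with the CD arrays wider apart was not counted.

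The intervals show how much the arrays could have resolved. Around each difference, limma gives a 95% interval, which held 0 for all 16 probes (limma adjusted p = 1.00 for each) and lay wholly inside a 2-fold change for 14. The exceptions were the brighter Me1 probe, with an upper bound of 1.24, and a dim Acaca probe, with a lower bound of -1.11. For 15 of the 16 probes the difference between the diets was smaller than the gap between arrays of the same diet in at least 1 group. The exception was the dimmer Me1 probe. The share of all tested probes for which this held was not counted, so the count has no background. Changes smaller than the reach of these intervals could not be resolved with 4 arrays.

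**Figure D2:**
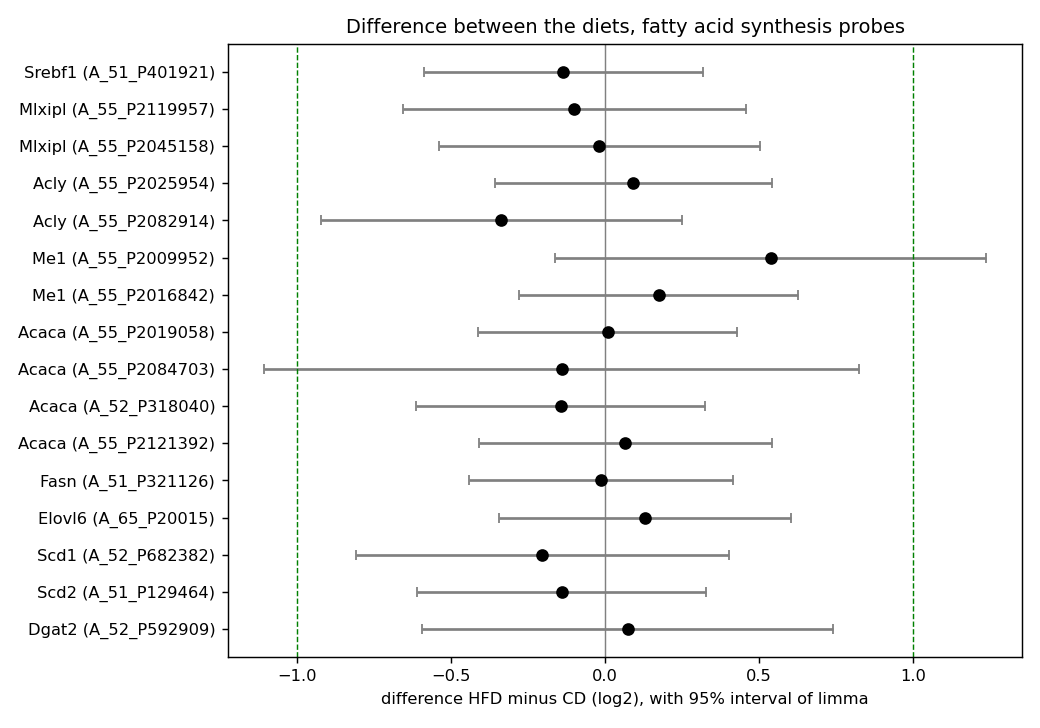
Difference between the diets (HFD minus CD, log2, horizontal axis) for each of the 16 probes, with the 95% interval of limma as bars. Green dashed lines mark a 2-fold change, and all 16 intervals cross 0.

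Among the regulators, Srebf1 had 1 probe and Mlxipl 2. Srebf1 encodes the SREBP-1 proteins, which switch on most enzymes of the pathway. Its level was 4.36 and 4.54 under CD and 4.35 and 4.28 under HFD. The HFD arrays were thus both lower, by a margin of 0.0081 between CD replicate 1 and HFD replicate 1. The group levels were 4.45 ± 0.13 (SD, n = 2) and 4.31 ± 0.052 (SD, n = 2), and the difference was -0.14 (standard error 0.17, 95% interval -0.59 to 0.32, limma adjusted p = 1.00). The RefSeq table gives 3 promoter windows for Srebf1, and this single probe does not separate transcripts by their start.
Mlxipl encodes ChREBP, which answers to glucose. Its brighter probe (A_55_P2119957) had levels of 2.20 and 2.59 under CD and 2.38 and 2.22 under HFD, both inside the CD range. Its other probe (A_55_P2045158) ran the opposite way in the CD group, with levels of 0.87 and 0.52, and had 0.66 and 0.68 under HFD. The differences were -0.10 (standard error 0.21, 95% interval -0.66 to 0.46) and -0.018 (standard error 0.20, 95% interval -0.54 to 0.50). Without CD replicate 2 the first was 0.092, and without CD replicate 1 the second was 0.16, so that neither probe kept its sign.

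The supply of acetyl-CoA and NADPH rests on Acly and Me1. The bright Acly probe had levels of 4.75 and 4.92 under CD and 4.89 and 4.97 under HFD. The diets overlapped, and the difference of 0.091 (standard error 0.17, 95% interval -0.36 to 0.54) became -0.017 with quantile normalization. The dim Acly probe (A_55_P2082914), designed on another transcript of the gene, had levels of -2.82 and -2.55 under CD and -3.21 and -2.83 under HFD. Both HFD arrays were lower here, by a difference of -0.34 (standard error 0.22, 95% interval -0.92 to 0.25, limma adjusted p = 1.00). The probes of Acly therefore disagreed in sign, and each interval held 0.
Me1, the cytosolic malic enzyme, showed the largest difference of the 16 probes. Its brighter probe (A_55_P2009952) had levels of 0.98 and 0.37 under CD and 1.13 and 1.29 under HFD. Both HFD arrays were higher, and the gap between the CD arrays (0.62) was wider than the mean difference between the diets. The difference was 0.54 (standard error 0.26, 95% interval -0.16 to 1.24, limma adjusted p = 1.00), or 1.45-fold. It rested on CD replicate 2, since it was 0.23 without that array and 0.85 when CD replicate 1 was left out instead. Within replicate number 1 the HFD array was 0.15 higher and within replicate number 2 it was 0.92 higher. The second Me1 probe (A_55_P2016842) is assigned to the same transcript. Its levels were -0.46 and -0.63 under CD and -0.42 and -0.32 under HFD. The order of the diets was the same on both probes, and the second difference was smaller (0.17, standard error 0.17, 95% interval -0.28 to 0.63). Across all tested probes, 92.8% had a difference no larger in size than that of the brighter Me1 probe.

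The enzymes that build the chain, Fasn and Acaca, had the differences nearest to 0 by their brightest probes. Fasn had intensities of 46977 and 31360 under CD and 43943 and 38419 under HFD before scaling. After scaling its levels were 5.45 and 5.48 under CD and 5.50 and 5.40 under HFD. The CD values lay inside the HFD range. The difference was -0.013 (standard error 0.16, 95% interval -0.44 to 0.42, limma adjusted p = 1.00), it was 0.0029 with normexp background correction, and leaving out 1 array at a time gave -0.063 to 0.038.
Acaca, which makes malonyl-CoA, had 4 probes on 1 transcript. The brightest (A_55_P2019058) had levels of 3.08 and 3.07 under CD and 3.11 and 3.07 under HFD. Its difference of 0.0083 (standard error 0.16, 95% interval -0.41 to 0.43), the smallest of the 16 probes in size, became -0.063 with quantile normalization. Probe A_52_P318040 had levels of -0.60 and -0.44 under CD and -0.57 and -0.75 under HFD (difference -0.14, standard error 0.18). Probe A_55_P2121392 had -3.33 and -3.53 under CD and -3.45 and -3.28 under HFD (difference 0.066, standard error 0.18). The last probe (A_55_P2084703, difference -0.14, standard error 0.36) lay close to the limit of detection, with intensities of 19.3 and 22.9 under CD and 17.9 and 23.7 under HFD. All 4 Acaca probes overlapped between the diets.

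Of the genes that modify the chain, Elovl6 had levels of 2.13 and 1.91 under CD and 2.09 and 2.22 under HFD. The diets overlapped, with a difference of 0.13 (standard error 0.18, 95% interval -0.34 to 0.60). The desaturase Scd1 had levels of 0.88 and 1.37 under CD and 0.89 and 0.95 under HFD. The HFD arrays thus lay beside CD replicate 1, and CD replicate 2 stood above the other 3. The difference was -0.20 (standard error 0.23, 95% interval -0.81 to 0.40, limma adjusted p = 1.00). Leaving out CD replicate 2 gave 0.041 and leaving out CD replicate 1 gave -0.45. Scd2, the fetal desaturase, had levels of 5.84 and 6.07 under CD and 5.79 and 5.84 under HFD. Both HFD arrays were lower, by a difference of -0.14 (standard error 0.18, 95% interval -0.61 to 0.33), and CD replicate 2 was again the highest. Without CD replicate 2 it was -0.025.
Dgat2, which adds the last acyl chain of triglyceride, had levels of 3.97 and 4.54 under CD and 4.41 and 4.26 under HFD. The CD arrays enclosed both HFD arrays. The difference was 0.074 (standard error 0.25, 95% interval -0.59 to 0.74), and it became -0.027 with quantile normalization and -0.21 without CD replicate 1. Within replicate number 1 the HFD array was higher by 0.43, and within replicate number 2 the difference was -0.29.
Within replicate number 1 and then replicate number 2, HFD minus CD was -0.0081 and -0.26 for Srebf1, 0.17 and -0.37 for the brighter Mlxipl probe, and -0.20 and 0.17 for the other. It was 0.14 and 0.044 for the bright Acly probe, -0.39 and -0.28 for the dim one, and 0.039 and 0.31 for the second Me1 probe. The brightest Acaca probe had 0.025 and -0.0082, Fasn 0.050 and -0.075, Elovl6 -0.043 and 0.30, Scd1 0.0092 and -0.42, and Scd2 -0.048 and -0.23. The remaining Acaca probes had 0.026 and -0.31 (A_52_P318040), -0.11 and 0.25 (A_55_P2121392) and 0.039 and -0.32 (A_55_P2084703). Over all 16 probes, the differences within replicate numbers 1 and 2 had opposite signs for 10, and these values have no test. The share of all tested probes with opposite signs was not counted.

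**Figure D3:**
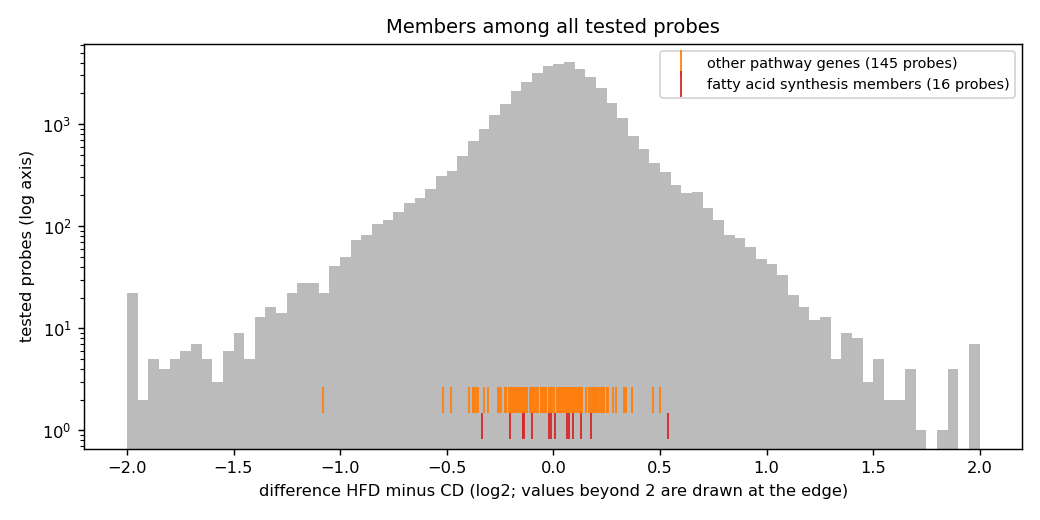
Differences between the diets (HFD minus CD, log2, horizontal axis) for all 41332 tested probes as grey bars on a log count axis, with the 16 probes of the fatty acid synthesis genes as red ticks and 145 probes of other pathway genes as orange ticks. The red ticks lie between -0.34 and 0.54, and 92.8% of the grey bars' probes differ by no more than the tick farthest from 0 (Me1).

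The pathway was widened to 85 further genes, from a list written by hand, of which 84 had a tested probe (145 probes). Their differences had a median of 0.027. Of the 145 probes, 0 were higher and 1 was lower past both cutoffs, against 0.293% and 0.477% of all tested probes, and 1 was higher and 1 lower at a limma p under 0.05 alone, against 1.58% and 1.76%. Both HFD arrays lay above both CD arrays for 31 of the 145 probes and below for 10, where the shares among all probes were 19.5% and 11.1%.
By role, the median difference was -0.040 over 36 probes of regulators and sensors (among them Scap, Insig1 and the AMP-activated kinase subunits), 0.041 over 16 probes for acetyl-CoA supply and 0.057 over 11 probes for NADPH supply. It was 0.081 over 23 probes for chain building and acyl activation, 0.0038 over 27 probes for elongation and desaturation, and 0.11 over 32 probes for glycerolipid assembly. The brightest gene of each role was as follows for all but elongation and desaturation. Prkag1, a kinase subunit, had a difference of 0.041, and Taldo1 of the pentose phosphate pathway 0.057. Citrate synthase (Cs) had 0.20, the acyl-CoA binding protein Dbi 0.18 and the acyltransferase Agpat4 0.21, and the interval of each held 0. The HFD arrays lay above both CD arrays for Cs and Agpat4 and overlapped with them for the other 3.

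The probes past a cutoff were those of Scd4 and Fads6. Scd4 is a further stearoyl-CoA desaturase, and Scd1 to Scd4 lie near each other on 1 chromosome in RefSeq. Its dim probe (A_55_P2011872) had levels of -4.61 and -5.07 under CD and -5.57 and -6.27 under HFD. Both HFD arrays were lower, and HFD replicate 2 was not well above background. The difference was -1.08 (standard error 0.32, 95% interval -1.92 to -0.24, limma adjusted p = 1.00). It was -0.25 with normexp background correction, and neither there nor with the methods' t-test was the probe past the cutoffs. It stayed past them with quantile normalization (-1.06), the deposited table (-1.08), the replicate number as a block and the other filters. Leaving out 1 array gave -0.85 without CD replicate 1 and -1.31 without CD replicate 2. It gave -1.42 without HFD replicate 1 and -0.73 without HFD replicate 2. The bright Scd4 probe (A_55_P2538668) went the other way, with levels of 5.19 and 5.37 under CD and 5.52 and 5.71 under HFD (difference 0.33, standard error 0.18, limma adjusted p = 1.00). With probes of 1 gene on opposite sides of 0, no direction is given for Scd4, and cross-hybridisation among the similar Scd transcripts was not tested. Fads6, a member of the fatty acid desaturase family, had levels of -1.71 and -1.43 under CD and -1.07 on both HFD arrays (difference 0.50, standard error 0.18, 95% interval 0.014 to 0.99, limma adjusted p = 1.00). The interval held 0 with quantile normalization (-0.026 to 1.05), with no filter on the 20th percentile (-0.052 to 1.05), with the replicate number as a block (-0.13 to 1.13) and without either HFD array, and the methods' t-test did not pass an unadjusted p of 0.05.

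**Figure D4:**
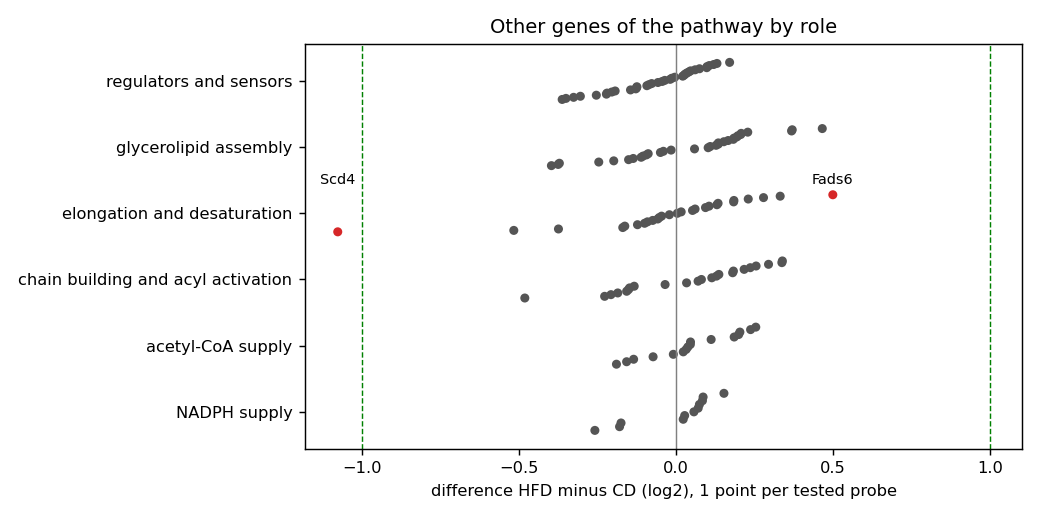
Difference between the diets (HFD minus CD, log2, horizontal axis) of the 145 tested probes of other pathway genes, grouped by role, 1 point per probe and ordered by size within a role. Red points had a limma p under 0.05 and green dashed lines mark a 2-fold change. The 2 red points are Scd4 (-1.08) and Fads6 (0.50).

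Lipogenic enzymes are made in liver cells and in fat, so the markers of these and of other tissues were read on the same arrays. In bulk tissue, fewer cells of a type and less RNA per cell cannot be told apart. All 15 markers of hepatoblasts and hepatocytes were well above background on all 4 arrays, with Serpina1a and Alb the brightest, and their median difference between the diets was -0.013. Relative to the mean of each gene, their median level was -0.28 on CD replicate 1, 0.26 on CD replicate 2, and 0.022 and 0.017 on the HFD arrays. Their summed level on the linear scale was 2234 and 3444 under CD and 2722 and 2743 under HFD. Such a sum weights each gene by the brightness of its probe. It can be read between arrays but not as the share of a gene or tissue. CD replicate 2 thus had the highest level of hepatocyte markers. Of the 16 member probes, 8 were highest on this array (those of Srebf1, Scd1, Scd2 and Dgat2, the brighter Mlxipl probe, the dim Acly probe, and A_52_P318040 and A_55_P2084703 of Acaca). Another 5 were lowest on it (Elovl6, both Me1 probes, the dimmer Mlxipl probe and A_55_P2121392 of Acaca). The share of all tested probes highest or lowest on this array was not counted, so these counts have no background. The part of the liver cell content in these differences was not tested.
Of the adipocyte markers, Adipoq and Ucp1 were below the detection flag on all 4 arrays (not well above background). The other 9 were detected, 8 of them on all 4 arrays. They had a median difference of 0.091, with Fabp4 and Pparg the brightest. Their summed levels were 8.07 and 7.60 under CD and 7.50 and 10.4 under HFD. The bright Fabp4 probe made up most of each sum, and without it the sums were 1.926 and 1.685 under CD and 1.738 and 1.895 under HFD.
For the other lists the median difference between the diets was -3.62 for 12 detected genes of trophoblast and decidua, of which 11 were lower under HFD and 1 higher, -0.81 for 12 of brain and neuron (brightest Stmn2 and Snap25), 0.86 for 10 of adrenal and gonad steroidogenic cells (Fdx1 and Cyp17a1), 0.47 for 9 of kidney (Wt1 and Aqp2) and -0.28 for 12 of gut, stomach and pancreas (Cpa1 and Fabp2). It was 0.22 for 12 erythroid genes (Hba-a1 and Hbb-y) and 0.070 for 10 of macrophages (Marco and Csf1r). The 10 fatty acid synthesis genes, each by its brightest probe, had a median of -0.0023, with 5 higher and 5 lower. In the trophoblast list, Ctsq and Prl8a6 were not well above background on either HFD array, and with these set at the higher of their own level and the lowest level well above background on the array, the median was -3.42. Set in the same way for Amh, the steroidogenic list had 0.75. Of the brightest trophoblast genes, Tpbpa had a difference of -3.91 and Gcm1, the only one that was higher, 0.55. The summed level of the list was 63.9 and 70.0 under CD and 46.5 and 49.4 under HFD, and without Gcm1 it was 13.7 and 50.5 under CD and 3.28 and 0.946 under HFD, with Syna and Cts7 not well above background on each of the 4 arrays. Its part in the levels of the fatty acid synthesis genes was not tested.

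**Figure D5:**
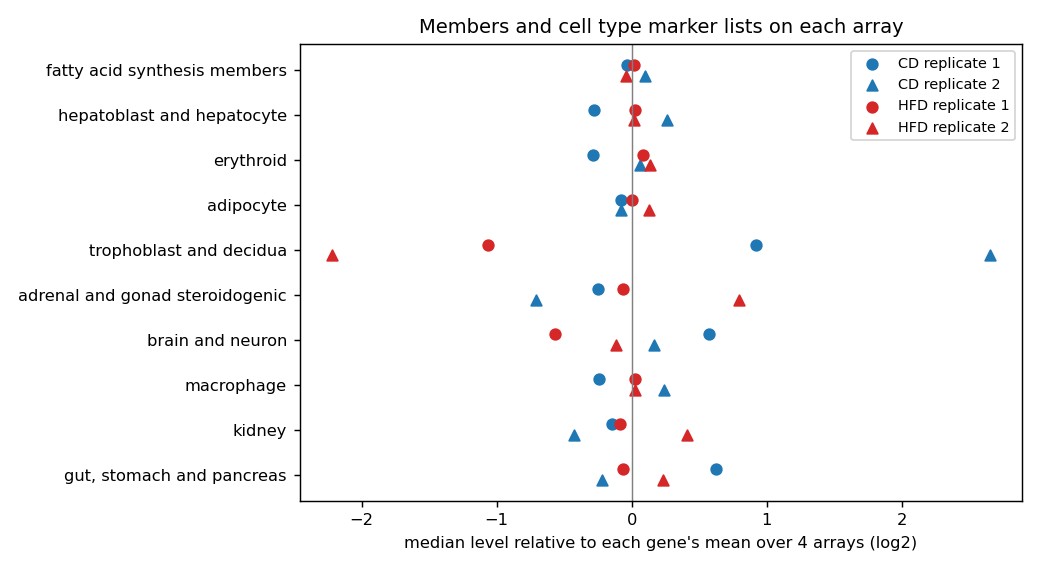
Median level of the fatty acid synthesis genes and of each cell type marker list on each array, relative to the mean of each gene over the 4 arrays (log2, horizontal axis). Blue marks CD and red HFD arrays, circles are replicate 1 and triangles replicate 2. The fatty acid synthesis genes stay between -0.043 and 0.099, and the trophoblast list, with 2 genes below detection under HFD taken at their measured values, spreads from -2.22 to 2.65.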

How the data were processed

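Per the labels and the methods, Cy3-labeled cRNA from livers at 14.5 dpc was hybridised to a mouse array, and the authors read the image with Feature Extraction 11.0.1.1. The deposited intensity of each spot was background-subtracted and spatially detrended, with no scaling between arrays. The flags that the authors deposited beside it are scores, each 0 or 1. A further deposited table holds a normalized signal for 41471 probes, and for the 41171 of them with a single spot this was the intensity divided by 1 constant on each array.

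For this work the log2 intensity was averaged over the spots of a probe without outlier flags, and the 75th percentile of each array was subtracted. Left out were probes below the 20th percentile on at least 1 array and those with a CV over 50% in both groups. The CV was taken on linear intensities, with that of log2 levels as an alternative. That left 41332 of 56605 probes, which limma 3.58.1 (R 4.3.3) compared between diets (HFD minus CD, 4 arrays, no covariates, two-sided), after a test of the steps on simulated data. Probes were named by matching transcripts to RefSeq (GRCm38.p6), which gave 32994 probes 1 symbol. The array was designed on another build, so no probe or gene coordinates are given. There was a single slide and a single scan. The number of arrays limits the precision.

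The members and the lists of pathway and marker genes were chosen with earlier results of these data known. Named in the text are every member with every probe, the brightest gene of each pathway role, every pathway gene past both cutoffs, and the 2 brightest genes of each marker list. Fads6, Scap, Insig1 and the marker genes not well above background were added after the values were seen. Alternatives were quantile normalization, normexp (offset 50, on the median brightness of each spot, as the mean is not in the files), the deposited table, other filters on dim probes and on CV, the methods' t-test, 1 probe per gene, the replicate number as a block, and leaving out each array. Differences within each replicate number were added after the data were seen. Tables were made in Python 3.11.15 (pandas 2.3.3 and numpy 2.4.6), and figures in matplotlib 3.10.9.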

Additional observations from a re-analysis of the deposited data

How the results depend on the processing

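Over 14 alternatives, 0 member probes passed both cutoffs in either direction, and the median difference of the member probes stayed between -0.12 (without CD replicate 1) and 0.012 (without CD replicate 2). With all 4 arrays kept, only the brighter Me1 probe had an unadjusted limma p under 0.05, and only with normexp background correction (difference 0.51). In that setting 313 of 41497 tested probes were higher and 298 lower in the HFD group at this p. Without CD replicate 1, which leaves 1 CD array, the difference was 0.85 for Me1 and -0.45 for Scd1. Differences close to 0 changed sign with the setting. With quantile normalization the brightest probe had a difference of -0.017 for Acly, -0.063 for Acaca and -0.027 for Dgat2, and with normexp background correction Fasn had 0.0029. Leaving out 1 array at a time gave -0.21 to 0.36 for Dgat2, -0.29 to 0.092 for Mlxipl, -0.45 to 0.041 for Scd1, -0.012 to 0.028 for Acaca and -0.063 to 0.038 for Fasn, while Me1 ran from 0.23 to 0.85. The count of other pathway probes lower past both cutoffs was 1, and it was 0 with normexp background correction, with the methods' t-test and with 1 probe per gene symbol, and between 0 and 2 with each array left out. Over tested probes, samples with the same replicate number did not deviate together (correlation of deviations -0.0997, and the same without sex-linked genes). The number was therefore not taken as a pairing in the main fit. It did go with the sex-linked transcripts, with Eif2s3y in replicate 1 and Xist in replicate 2 of both diets. The correlation could not weigh that pattern, so a block by replicate number is also a block by these transcripts. With the replicate number as a block the median difference of the member probes was -0.016, with 0 member probes past both cutoffs and 1 pathway probe lower past both cutoffs, while Fads6 no longer passed an unadjusted p of 0.05. No fit with slide or scan as a block was run, since each was the same for all 4 arrays.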
